A study of Homo sapiens with 12 samples.

Results

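The genes followed here encode 56 proteins of inositol phosphate and phosphoinositide metabolism, listed by name among 58735 genes of the count table. The rule used no measured value, but the list was drawn up with earlier results of these data known, and the study had singled out 4 of the genes from these libraries. All 56 were found by the gene symbols deposited with the data. They were ordered by role into 7 groups: 6 genes of inositol supply and phosphatidylinositol synthesis, 14 phosphoinositide kinases, 7 phospholipase C enzymes, 3 IP3 receptors, 10 inositol phosphate kinases, 3 inositol phosphate phosphatases and 13 phosphoinositide phosphatases.

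Inositol is joined to a lipid to make phosphatidylinositol, and kinases then add phosphates at fixed positions of the ring. Phospholipase C enzymes cut the lipid phosphatidylinositol 4,5-bisphosphate (PIP2) into diacylglycerol and the soluble messenger inositol trisphosphate (IP3), which opens calcium channels of the endoplasmic reticulum, the IP3 receptors. Kinases build the more highly phosphorylated inositol phosphates and the inositol pyrophosphates from IP3, while phosphatases return the ring to free inositol. The phosphoinositide lipids also mark the membranes of the cell, and insulin and growth factor receptors signal through them.

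The samples were 293T 4A cells, a line derived from human embryonic kidney (HEK293T), which carry a doxycycline-inducible 4EBP1-4A. 4EBP1 binds the cap-binding protein eIF4E and blocks translation until kinases phosphorylate it, and in 4EBP1-4A the phosphorylated residues are replaced by alanine. The construct was brought in with the lentiviral backbone LT3REVIR into cells sorted for GFP, and both treatments used the same cells: DMSO, or doxycycline at 2 mg/mL (12 h in the sample labels, 2 h in the text of the series, and a longer time in the results text of the study). RNA-seq of total RNA and Ribo-seq, which counts mRNA fragments protected by ribosomes (RF reads), had 3 libraries for each treatment, 12 in all. The study calls the 3 replicates biological, but the labels do not say whether they were separate cultures, so p-values measure only the spread between these libraries, part of which may be technical.

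In RNA-seq, 51519700 to 57824136 reads fell on genes for DMSO, and 47862104, 45887231 and 21687906 in doxycycline replicates 1, 2 and 3. Doxycycline replicate 3 stood apart: 88.4% of all its counts were listed as aligned to more than 1 place, against 54.9% to 69.9% in the other 5 libraries. Whether a read with several places was counted once there is not given. Of its reads on genes, 5.76% were mitochondrial, against 11.8% to 15.8%. Ribo-seq libraries held only 210186 to 1002424 reads on genes, of which 86.0% to 94.5% fell on 10 genes. A count of 0 there allows up to 3 reads, which is 2.99 to 14.3 reads per 1000000, for counting error only. EIF4EBP1, the induced gene, averaged 161 ± 7.60 CPM over the DMSO and 269.5 ± 10.8 CPM over the doxycycline RNA-seq libraries (SD, n = 3 each). CPM is reads of a gene per 1000000 reads on genes after TMM scaling. It cannot separate the transgene from the cell's own copy. In Ribo-seq, EIF4EBP1 had 1 read over all libraries together. All 8 markers of 293 cells were detected in each RNA-seq library and summed to 996 to 1086 CPM with DMSO and 1120 to 1369 CPM with doxycycline. Of 15 skin cell markers, 7 or 8 were at 0 in each RNA-seq library, and nearly all of their sum was DSC3, at 142 to 149.7 CPM with DMSO and 151, 130.4 and 82.1 CPM in doxycycline replicates 1, 2 and 3. In Ribo-seq, 4 to 7 of the 8 markers of 293 cells were at 0 in each library. Together these 8 had 3, 39 and 21 reads with DMSO and 7, 5 and 10 with doxycycline. Summed over libraries, the skin keratins KRT5, KRT1, KRT6A and KRT2 had 29, 14, 10 and 8 reads, beside 0 to 3 in RNA-seq. FLG had 1 Ribo-seq read, and each of the remaining skin markers, KRT10, KRT14 and DSC3 among them, had 0.

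The study singled out ITPK1, IPPK, PLCG1 and IMPA1 from these same libraries for their translation, so their footprints are described below and not tested as independent evidence. ITPK1 (chromosome 14, 92936914 to 93116320, GRCh38, minus strand) makes an inositol polyphosphate kinase that acts on inositol tris- and tetrakisphosphates. IPPK (chromosome 9, 92613183 to 92670131, minus strand) adds the phosphate that completes inositol hexakisphosphate. PLCG1 (chromosome 20, 41136960 to 41196801, plus strand) encodes the phospholipase C that tyrosine kinases, FGF receptors among them, recruit and phosphorylate. IMPA1 encodes an inositol monophosphatase, the enzyme that frees inositol and that lithium inhibits.

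The first bases of the ITPK1, IPPK and PLCG1 mRNAs are shown here, and no start of IMPA1 is shown. They are given because translation of TOP mRNAs, which start with a C and an unbroken run of pyrimidines, is known to be sensitive to 4EBP1. Each line gives the first 20 bases of a RefSeq transcript start on the transcript's strand (GRCh38.p14), with the 5 bases in which the tract would lie in capitals.
ITPK1, chr14:93036955-93036974, minus strand: GGGGTgggggccgggggaac
ITPK1, chr14:93115906-93115925, minus strand: GCTTCctcgccgccgcgggc
IPPK, chr9:92670112-92670131, minus strand: AGTCGccgcggcggggtcga
PLCG1, chr20:41137543-41137562, plus strand: GTCTGccgcctcagcctcag
None of these starts is a C followed by 4 pyrimidines (C or T). Of the 56 genes, 48 had a start in the RefSeq table, and 4 of their 75 starts (5.33%) had this form, those of INPPL1, OCRL, PIP5K1B and SYNJ1, beside 4.07% of 35116 starts of all genes. Annotated starts were not measured in these cells.

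The mRNA levels were compared between genes per kilobase of exon. All 56 genes passed the filter of at least 10 reads in at least 3 RNA-seq libraries, and their DMSO means ran from 0.320 to 28.9 CPM per kb with a median of 6.44. The 5 highest were PIP5K1A at 28.9 ± 0.16 CPM per kb, CDIPT at 26.9 ± 0.22, ISYNA1 at 25.6 ± 0.93, INPPL1 at 24.9 ± 1.27 and PI4KB at 24.9 ± 0.56 (SD, n = 3 for each). PIP5K1A makes PIP2, CDIPT joins inositol to the lipid, ISYNA1 makes inositol phosphate from glucose 6-phosphate, INPPL1 (SHIP2) removes the 5-phosphate of PIP3, and PI4KB makes phosphatidylinositol 4-phosphate at the Golgi. ISYNA1, INPPL1 and PI4KB did not differ from each other beyond these SDs. The 3 lowest were PLCB4, a phospholipase C of G protein signaling, at 0.871 ± 0.051 CPM per kb, INPP4B, a 4-phosphatase, at 0.354 ± 0.046, and INPP5D (SHIP1), known from blood cells, at 0.320 ± 0.0088 (SD, n = 3 for each). INPP4B and INPP5D overlapped within their SDs. With the longest transcript as length, INPP5D and INPP4B were again the lowest, but PLCB4, at 2.41, stood above PIP5K1B (1.36), PLCD1 (1.87) and ITPKA (2.38).

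**Figure D1:**
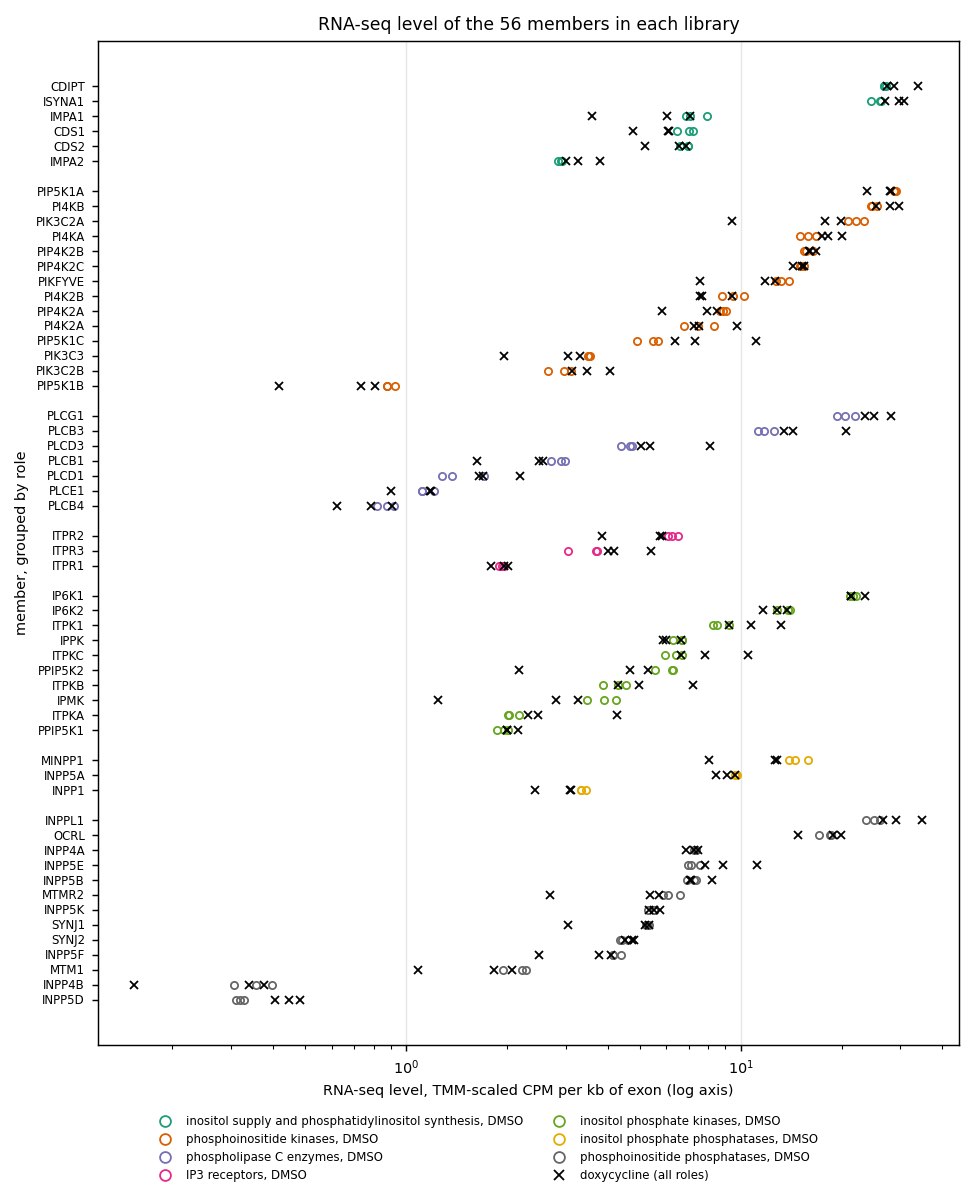
RNA-seq level of each of the 56 genes in every library, as TMM-scaled CPM per kb of exon on a log axis, grouped by role, with open circles for the 3 DMSO libraries and crosses for the 3 doxycycline libraries. The DMSO means run from 0.320 (INPP5D) to 28.9 (PIP5K1A), and the cross farthest from the circles is doxycycline replicate 3 in genes such as PIK3C2A, PPIP5K2 and IPMK.

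Genes that encode the same enzyme differed in level in these cells. PIP5K1A made up 82.2% of the summed DMSO level per kb of the PIP2-making kinases, with PIP5K1C at 5.34 ± 0.41 and PIP5K1B at 0.893 ± 0.027 CPM per kb. For the kinases that make PIP2 from phosphatidylinositol 5-phosphate, PIP4K2B was at 15.8 ± 0.50, PIP4K2C at 15.2 ± 0.22 and PIP4K2A at 8.87 ± 0.20 CPM per kb, the first and second overlapping within their SDs. The IP3 receptor genes stood in the order ITPR2 (6.27 ± 0.21 CPM per kb), ITPR3 (3.49 ± 0.38) and ITPR1 (1.93 ± 0.029), with no overlap of their SDs, but with the longest transcript as the length ITPR1, at 6.26, stood above ITPR3, at 3.49, and near ITPR2, at 6.94. The IP3 3-kinases stood at 6.33 ± 0.37 for ITPKC, 4.24 ± 0.33 for ITPKB and 2.08 ± 0.086 CPM per kb for ITPKA. IP6K1, which makes the pyrophosphate IP7, was at 21.6 ± 0.43 and IP6K2 at 13.6 ± 0.64 CPM per kb; with the longest transcript as the length this order turned, at 23.4 and 30.7. PPIP5K2, of the kinases that make IP8, was at 6.03 ± 0.42 and PPIP5K1 at 1.95 ± 0.073 CPM per kb. The lithium-sensitive phosphatases were at 7.29 ± 0.56 for IMPA1 and 2.89 ± 0.038 CPM per kb for IMPA2, or 9.54 and 6.82 by the longest transcript. CDS1 (6.89 ± 0.38) and CDS2 (6.84 ± 0.21), which make the CDP-diacylglycerol used for phosphatidylinositol, overlapped within their SDs. The endocytic phosphatases SYNJ1 and SYNJ2 were at 5.27 ± 0.052 and 4.46 ± 0.12 CPM per kb, an order that turned with the longest transcript, at 5.98 and 7.54. Each ± here is the SD of 3 DMSO libraries.

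The first comparison asked whether induction of 4EBP1-4A changed the mRNA of these enzymes. Over all 6 RNA-seq libraries none of the 56 genes was called, and neither was any of the 20552 genes tested (0% higher and 0% lower; edgeR's quasi-likelihood F-test, Benjamini-Hochberg adjusted p under 0.05). The induced gene, EIF4EBP1, was among those not called by edgeR (log2 fold change 0.75 ± 0.095 (SE), adjusted p = 0.326). Without doxycycline replicate 3 its adjusted p was 1.19e-05 (edgeR), so a gene not called over 6 libraries may still have changed. DESeq2's Wald test over 6 libraries called 1 gene higher and 2 lower, none of them among the 56. In such bulk libraries, fewer cells with an mRNA and less of it per cell cannot be told apart. At an unadjusted p under 0.05, 7 of the 56 were higher and 0 lower, beside 9.58% and 4.13% of all genes. The log2 fold changes ran from -0.66 (IPMK) to 0.63 (PIP5K1C), 26 above 0 and 30 below, with a median of -0.017 beside -0.035 over all genes. Scaling by library totals instead gave 35 above and 21 below, and moved the median of all genes to 0.097. All doxycycline libraries lay above all DMSO libraries for 14 of the genes and below them for 15, beside 17.7% and 20.8% of all genes tested.

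Without doxycycline replicate 3, 696 genes (3.4%) were called higher and 825 (4.03%) lower of 20459 tested, and among them were 2 higher and 3 lower of the 56. PIP5K1C (1.28-fold) and PLCG1 (1.18-fold) rose, while IPMK, PPIP5K2 and PIK3C2A fell, to 0.783, 0.824 and 0.853 of the DMSO level. In that fit the other 51 did not pass the test. DESeq2's Wald test on the same libraries called 4 of the 56 higher and 3 lower, beside 4.87% and 5.15% of all genes, and library totals called 9 higher and 0 lower, beside 7.05% and 1.66%. The median log2 fold change of the 56 was then 0.012, with 30 above 0 and 26 below.

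PIP5K1C, which makes PIP2 at synapses and focal adhesions, was at 34.7, 40.3 and 38.8 CPM with DMSO and at 45.3, 52.0 and 79.1 CPM in doxycycline replicates 1, 2 and 3. Every doxycycline library was above the DMSO libraries, the third by far. Its log2 fold change was 0.63 ± 0.21 (SE) over 6 libraries, with an adjusted p of 0.326, and 0.36 ± 0.082 without replicate 3, with an adjusted p of 0.0206 (edgeR). PLCG1 was at 187, 212 and 198 CPM with DMSO and at 227, 241 and 271 CPM with doxycycline, again without overlap. The change was 0.31 ± 0.11 over 6 libraries (adjusted p = 0.326) and 0.24 ± 0.066 without replicate 3 (adjusted p = 0.0397, edgeR). Exons of PLCG1 overlap RPL23AP81 on the same strand and 3 genes on the opposite strand, PLCG1-AS1 and ZHX3 among them. Whether reads were counted by strand is not given in the sources used here. These genes therefore cannot be told apart where they overlap.

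IPMK, the kinase that makes inositol tetrakis- and pentakisphosphates, was at 25.8, 21.2 and 23.8 CPM with DMSO and at 19.9, 17.1 and 7.57 CPM with doxycycline. Its log2 fold change was -0.66 ± 0.31 over 6 libraries (adjusted p = 0.326) and -0.35 ± 0.095 without replicate 3 (adjusted p = 0.0347, edgeR). PPIP5K2 showed the same order of libraries, with 109, 95.8 and 108 CPM with DMSO and 91.3, 80.5 and 37.6 CPM with doxycycline. It changed by -0.57 ± 0.29 over 6 libraries (adjusted p = 0.326) and by -0.28 ± 0.074 without replicate 3 (adjusted p = 0.0333, edgeR). PIK3C2A, a class II PI3-kinase of endocytosis, was at 214, 193 and 203 CPM with DMSO and at 183, 164 and 86.6 CPM with doxycycline. The log2 fold change was -0.49 ± 0.25 over 6 libraries (adjusted p = 0.326) and -0.23 ± 0.068 without replicate 3 (adjusted p = 0.0478, edgeR). In all these genes the value of doxycycline replicate 3 lay beyond the other doxycycline libraries on the same side.

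**Figure D2:**
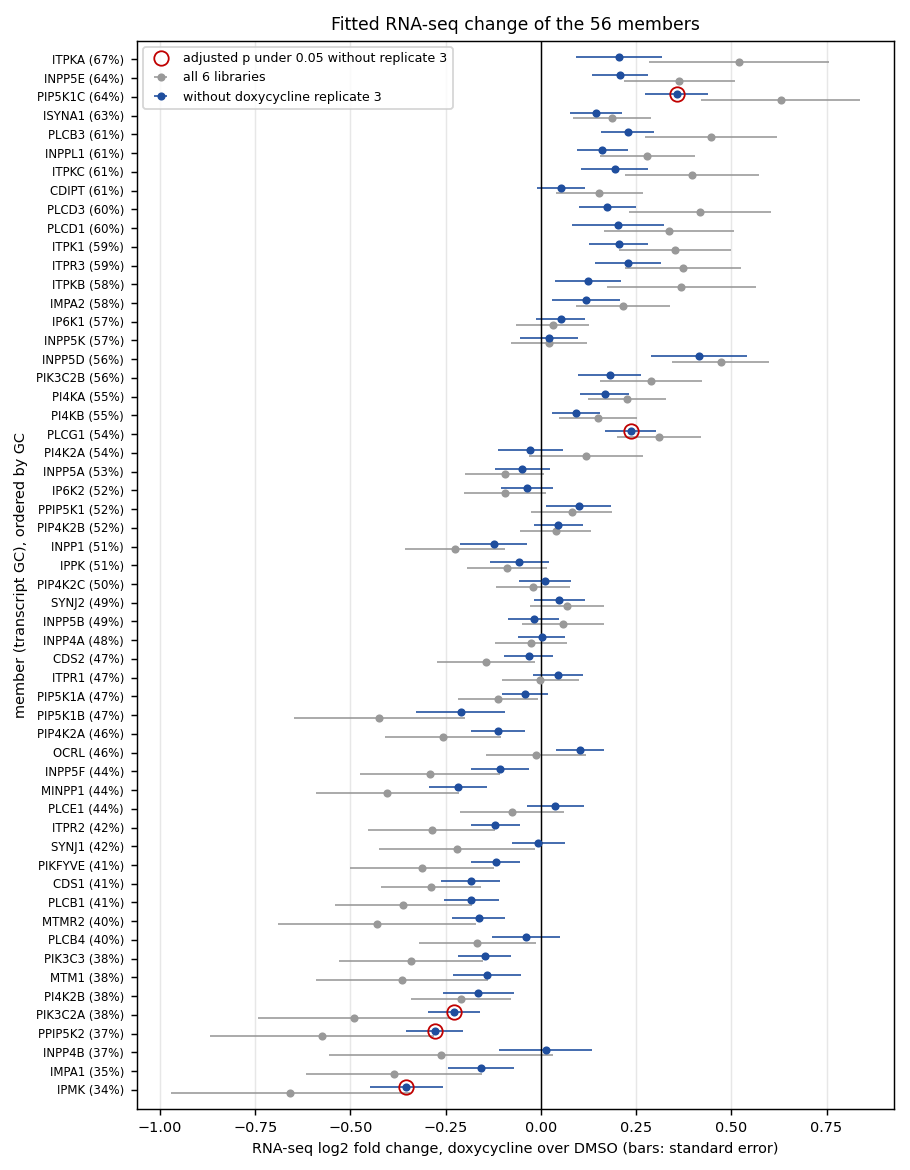
Fitted RNA-seq log2 fold change (doxycycline over DMSO, with its standard error) of the 56 genes, ordered by the GC content of their transcripts, over all 6 libraries (grey) and without doxycycline replicate 3 (blue), with red rings for an adjusted p under 0.05 in the second fit. The 5 ringed genes are PIP5K1C, PLCG1, PIK3C2A, PPIP5K2 and IPMK, and values pass from below 0 to above 0 as GC rises.

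Of the remaining genes that the study named, ITPK1 was at 57.5, 62.8 and 56.0 CPM with DMSO and at 62.6, 73.0 and 89.5 CPM with doxycycline. Its lowest doxycycline value lay just under the highest DMSO value, and the log2 fold change of 0.35 ± 0.15 was not called (adjusted p = 0.326; 0.102 without replicate 3, edgeR). IPPK was at 33.6, 33.7 and 31.7 CPM with DMSO and at 30.1, 33.4 and 29.5 CPM with doxycycline, so the groups overlapped. Its log2 fold change was -0.089 ± 0.11 (adjusted p = 0.596), and its exons overlap those of CENPP on the other strand. IMPA1 was at 35.0, 30.3 and 31.1 CPM with DMSO and at 31.1, 26.6 and 15.9 CPM with doxycycline. Replicates 2 and 3 were below the DMSO libraries, replicate 3 the furthest, and the log2 fold change was -0.39 ± 0.23 over 6 libraries and -0.16 ± 0.087 without it (adjusted p = 0.342 and 0.262, edgeR).

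Among inositol supply and phosphatidylinositol synthesis, 3 of 6 genes had a positive change and 3 a negative one, with a median of 0.0051. ISYNA1 was at 77.3, 82.1 and 82.6 CPM with DMSO and at 85.0, 93.6 and 97.0 CPM with doxycycline, without overlap, and its change of 0.19 ± 0.10 was not called. CDIPT was at 80.3, 81.6 and 80.7 CPM with DMSO and at 82.1, 85.9 and 102 CPM with doxycycline, again above every DMSO library. Of its change of 0.15 ± 0.11 over 6 libraries, 0.053 ± 0.063 remained without replicate 3.

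The phosphoinositide kinases ran from -0.49 (PIK3C2A) to 0.63 (PIP5K1C), with 6 of 14 above 0. PIP5K1A, the highest of the 56 per kb, was at 157, 156 and 155 CPM with DMSO and at 152, 151 and 129 CPM with doxycycline. Its doxycycline values were all lower, by a log2 fold change of -0.11 ± 0.10 that was not called. PI4KB was at 133, 139 and 135 CPM with DMSO and at 138, 152 and 162 CPM with doxycycline (0.15 ± 0.10, not called). PI4KA, which makes phosphatidylinositol 4-phosphate at the plasma membrane, was at 172, 191 and 181 CPM with DMSO and at 199, 209 and 229 CPM with doxycycline. These did not overlap, and the change of 0.23 ± 0.10 was not called; the pseudogenes PI4KAP1 and PI4KAP2 held 3727 and 1651 reads beside 53023 on PI4KA, and reads shared by near-identical copies are uncertain.

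Of the phospholipase C genes 4 of 7 were above 0, with a median of 0.31. PLCB4 was at 18.9, 19.9 and 17.7 CPM with DMSO and at 19.7, 17.0 and 13.5 CPM with doxycycline, and the groups overlapped. The IP3 receptors went different ways, at 0.37 ± 0.15 for ITPR3, -0.0010 ± 0.10 for ITPR1 and -0.29 ± 0.17 for ITPR2, none of them called. Inositol phosphate kinases ran from -0.66 (IPMK) to 0.52 (ITPKA), 6 of 10 above 0, and PPIP5K1 overlapped between groups, with 15.0, 16.1 and 15.7 CPM with DMSO and 16.1, 17.4 and 16.1 CPM with doxycycline. The 3 inositol phosphate phosphatases INPP1, INPP5A and MINPP1 had negative values between -0.40 and -0.095, and none was called. Of the 13 phosphoinositide phosphatases, 6 were above 0. INPPL1 was at 155, 172 and 164 CPM with DMSO and at 175, 191 and 229 CPM with doxycycline, without overlap (0.28 ± 0.13, not called). INPP5D was low but separate, at 2.86, 2.70 and 2.77 CPM with DMSO and at 3.53, 3.89 and 4.18 CPM with doxycycline. Its log2 fold change was 0.47 ± 0.13, with an adjusted p of 0.326, and 0.41 ± 0.13 without replicate 3, with an adjusted p of 0.0525 (edgeR). INPP4B was at 5.80, 5.20 and 4.48 CPM with DMSO and at 4.96, 5.48 and 2.25 CPM with doxycycline, and only replicate 3 lay outside the DMSO range.

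The changes of the 56 genes were ordered by the GC content of their transcripts, which ran from 34.1% (IPMK) to 66.8% (ITPKA). Over 6 libraries, the Spearman correlation between transcript GC and log2 fold change was 0.906 across the 56 genes, and it was 0.843 without doxycycline replicate 3; across all genes tested it was 0.672 and 0.539. These correlations are across genes that share the same libraries, which are not independent replicates. Below 45% GC, 18 of 18 had a negative change with a median of -0.33, and at 55% or more, 19 of 19 had a positive change with a median of 0.35. Of all genes tested, 13.9% below 45% GC and 85.1% at 55% or more had a positive change. The 19 genes between these limits were split into 7 above 0 and 12 below. The 3 called lower without replicate 3, IPMK, PPIP5K2 and PIK3C2A, had 34.1%, 37.1% and 37.6% GC, and the 2 called higher, PLCG1 and PIP5K1C, had 54.1% and 63.6%.

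The same order held in each doxycycline library taken alone against the DMSO mean, with Spearman correlations of 0.715 for replicate 1, 0.866 for replicate 2 and 0.928 for replicate 3. A relation to GC also appeared between DMSO libraries, where no treatment differed, but in both directions. Each against the mean of the other DMSO libraries gave -0.770 for replicate 1, 0.571 for replicate 2 and 0.313 for replicate 3. Transcript length and DMSO level followed the change far less, at -0.139 and -0.0907. How GC entered these values was not tested.

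**Figure D3:**
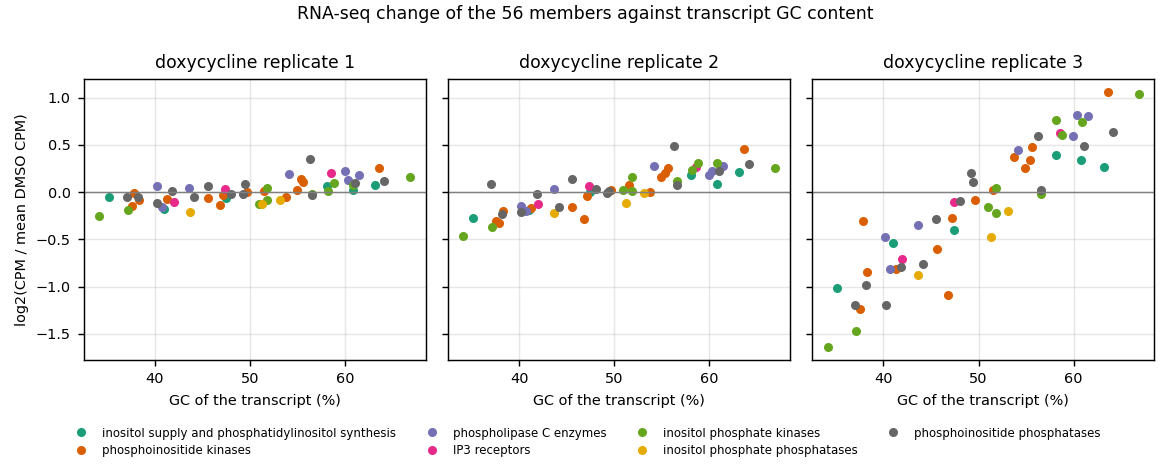
RNA-seq level in each doxycycline library relative to the DMSO mean (log2) against transcript GC content for the 56 genes, 1 panel per library and 1 color per role group. Points climb with GC in every panel, with Spearman correlations of 0.715, 0.866 and 0.928 in replicates 1, 2 and 3, and the span is widest in replicate 3.

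Each library's trend against GC was then removed, an alternative added after seeing the data. With it, edgeR called none of the 56 genes over 6 libraries or without replicate 3. In the second fit 1.99% of all genes were still called higher and 1.99% lower. At an unadjusted p under 0.05 over 6 libraries, 3 of the 56 were higher and 4 lower, beside 1806 and 1494 of 20396 genes. Without replicate 3 they were 4 and 4, beside 1955 and 1989 of 20305 genes. The log2 fold changes of PLCG1 and PIP5K1C without replicate 3 were then 0.16 (adjusted p = 0.0512) and 0.17 (adjusted p = 0.0768), and those of IPMK, PPIP5K2 and PIK3C2A were -0.091, -0.079 and -0.039 (adjusted p = 0.457, 0.355 and 0.646; edgeR). Of the 56 genes, 20 changed sign over 6 libraries. The removal takes out any change that follows GC, also one by the treatment, so a lost call does not tell its source. The 3 inositol phosphate phosphatases, none of them called, had a median of -0.21 over 6 libraries and -0.14 without replicate 3. The medians of the other role groups lay between -0.044 and 0.11 over 6 libraries. Without replicate 3 these lay between -0.036 and 0.066.

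**Figure D4:**
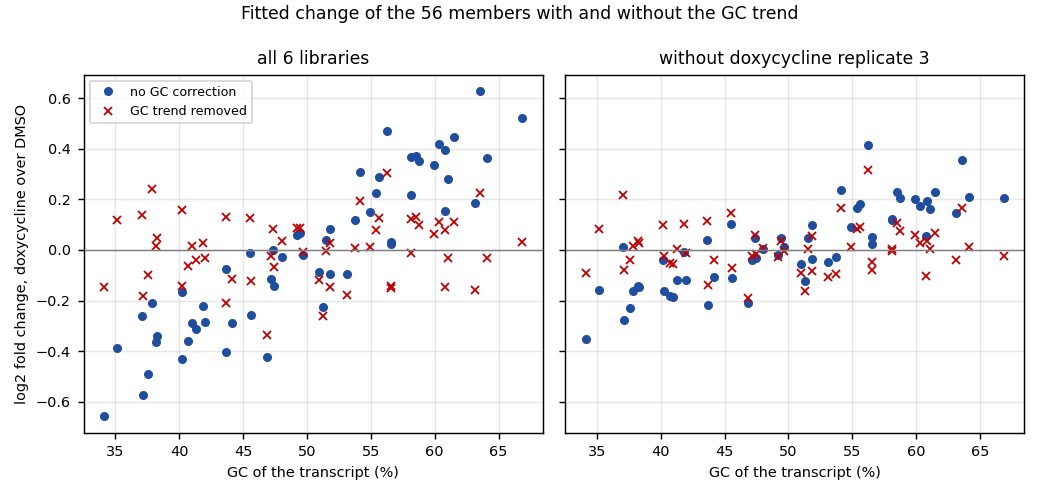
Fitted log2 fold change (doxycycline over DMSO) of the 56 genes against transcript GC content, over all 6 libraries and without doxycycline replicate 3, before (blue circles) and after (red crosses) removal of each library's trend against GC. The circles rise from -0.66 to 0.63 over 6 libraries, and there 20 of the 56 genes have a cross on the other side of 0 from their circle.

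A further 46 genes of phosphoinositide signaling, such as the class I PI3-kinases, phosphatidylinositol transfer proteins and myotubularins, were counted beside them, and 41 passed the filter. None was called over 6 libraries with edgeR or DESeq2, with 17 values above 0 and 24 below. At an unadjusted p under 0.05 in edgeR, 4 were higher and 2 lower, beside 9.58% and 4.13% of all genes. Without doxycycline replicate 3, where 3.4% of all genes were called higher and 4.03% lower, 0 of the 41 were higher and 3 lower. These were the myotubularin MTMR6 (-0.30 ± 0.078, adjusted p = 0.0320), the PI3-kinase subunit PIK3CA (-0.26 ± 0.074, adjusted p = 0.0416) and the inositol transporter SLC5A3 (-0.25 ± 0.068, adjusted p = 0.0377; edgeR). Their transcripts held 36.4%, 35.7% and 38.3% GC, and none was called once the GC trend was removed. That removal also takes out any treatment effect that follows GC. With the GC trend removed and without replicate 3, 2 of the 41 were called higher, beside 1.99% of all genes. They were PITPNB, a phosphatidylinositol transfer protein (0.20 ± 0.043, adjusted p = 0.0261), and PLCG2, the other phospholipase C gamma (0.26 ± 0.055, adjusted p = 0.0230, edgeR).

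The second question was how many footprints these mRNAs had. The 6 Ribo-seq libraries held 513 reads on the 56 genes together, 16, 41 and 40 with DMSO and 287, 69 and 60 with doxycycline. No read fell on 20 of the genes (35.7%, beside 57.3% of the genes in the RNA-seq test), 30 had between 1 and 9, and 6 (10.7%, beside 5.74%) had 10 or more. In 47 of the 56, no library held more than 3 reads. The 15 skin cell markers had 3, 29 and 8 reads in the DMSO libraries and 14, 5 and 3 in the doxycycline libraries. Whether the counts below hold any foreign reads was not tested.

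ITPK1 had 129 reads, 4, 11 and 11 with DMSO and 33, 43 and 27 with doxycycline, which was 25.1% of the reads on the 56 genes against 1.86% of their RNA-seq reads. Without doxycycline replicate 1 it was 96 of 226 reads, 42.5%. In RPM, reads per 1000000 reads on genes, this was 19.0, 15.3 and 11.0 with DMSO and 37.3, 81.9 and 90.0 with doxycycline. It was the only 1 of the 6 genes with 10 or more reads whose doxycycline libraries all exceeded the DMSO libraries, beside 2.43% of the 1607 genes tested in Ribo-seq. None had doxycycline libraries all below the DMSO libraries (3.8% of the genes tested). Reads on IPPK were 5, 6 and 4 with DMSO and 26, 5 and 8 with doxycycline, and 48.1% of the 54 reads lay in doxycycline replicate 1. IPPK was at 23.8, 8.37 and 3.99 RPM with DMSO and at 29.4, 9.52 and 26.7 RPM with doxycycline, so the groups overlapped.

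PLCG1 had 0 reads in each DMSO library and 0, 1 and 12 with doxycycline, 92.3% of them in replicate 3. The gene has 59650 reads in RNA-seq, the most of the enzymes named by the study, and a count of 0 in the DMSO libraries still allows 3 reads in each. IMPA1 had 0 reads in each DMSO library and 8, 1 and 0 with doxycycline, 88.9% of them in replicate 1. For both, 1 library therefore decided the count, and the libraries were different ones.

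The rest of the pathway, 52 genes, had 308 reads with a median of 1 per gene. PPIP5K1 alone had 204 of them, 5, 0 and 1 with DMSO and 197, 1 and 0 with doxycycline, so that 39.8% of all reads on the 56 genes came from 1 gene, nearly all from 1 library. Without PPIP5K1, the other 51 genes had 2, 24 and 24 reads with DMSO and 23, 18 and 13 with doxycycline. In RPM this was 9.52, 33.5 and 23.9 with DMSO and 26.0, 34.3 and 43.3 with doxycycline, and the groups overlapped. PPIP5K2 had 0, 0 and 5 reads with DMSO and 9, 9 and 0 with doxycycline, and PI4KA had 0, 5 and 2 with DMSO and 0, 1 and 2 with doxycycline. ITPK1, IPPK, PLCG1 and IMPA1 together held 205 reads, 40.0% of the reads on the 56 genes and 9.90% of their RNA-seq reads. This share ran from 23.3% to 78.3% between libraries, and without doxycycline replicate 1 it was 138 of 226 reads, 61.1%. Relative to RNA-seq, ITPK1 had 7265, IPPK 6098, IMPA1 1110 and PLCG1 218 RF reads per 1000000 RNA-seq reads. PPIP5K1 had 46332, and the other 51 genes had 122 together.

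**Figure D5:**
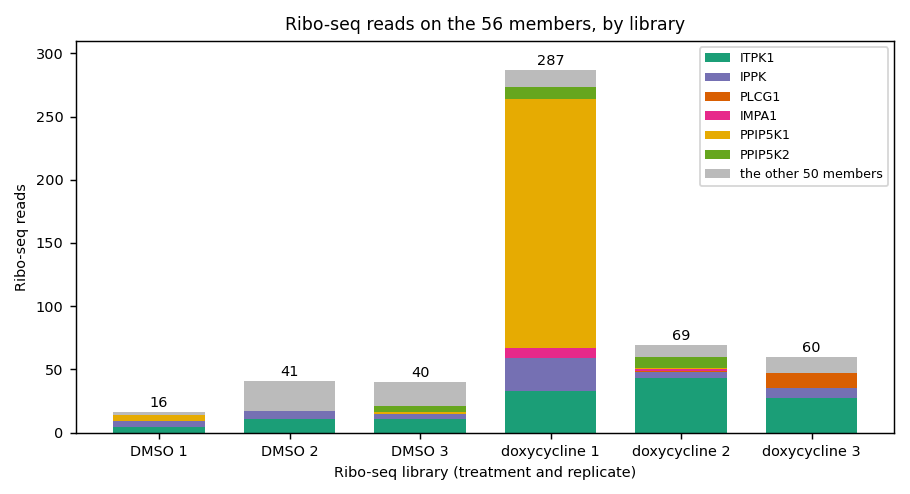
Ribo-seq reads on the 56 genes in each of the 6 libraries, as bars from 0 stacked by gene, with the total above each bar. ITPK1 is taller in all 3 doxycycline libraries (33, 43 and 27 reads) than with DMSO (4, 11 and 11), and PPIP5K1 fills 197 of the 287 reads of doxycycline replicate 1.

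Translation efficiency (TE), which sets RF reads against mRNA abundance, could be tested for 6 of the 56 genes, and none was called. Of the 1334 genes tested, 0% were higher and 0.15% lower (2 genes; edgeR's quasi-likelihood F-test of the interaction of assay and treatment). At an unadjusted p under 0.05, 100 of all genes tested were higher and 178 lower. In Ribo-seq alone, 6 of the 56 were tested and none called, with 0% of 1607 genes called in each direction, while 59 of all genes were higher and 88 lower at an unadjusted p under 0.05. The log2 change in TE was 1.98 ± 0.82 (SE) for ITPK1 (unadjusted p = 0.0307, adjusted p = 0.223, edgeR). For IPPK it was 1.68 ± 0.89 (unadjusted p = 0.0816, adjusted p = 0.299, edgeR). The unadjusted p of PLCG1 was 0.0232 and the adjusted p 0.209, but with its DMSO libraries at 0 it passed the filter only through its doxycycline reads, and its fitted change is no measure of size. PPIP5K1, PPIP5K2 and PI4KA had adjusted p of 0.244, 0.351 and 0.785 (edgeR), and IMPA1, with 9 reads, did not reach the 10 reads needed. PPIP5K1 and PPIP5K2 also passed the filter only through their doxycycline reads, those of PPIP5K1 nearly all in doxycycline replicate 1. DESeq2's Wald test gave no p-value for PPIP5K1.

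The call for ITPK1 and IPPK rested on the tool. DESeq2's Wald test called both higher in TE, with adjusted p of 7.49e-06 for ITPK1 and 0.00221 for IPPK, where 3.6% of all genes were called higher and 4.65% lower. In Ribo-seq alone it called ITPK1 (log2 fold change 2.39 ± 0.66, adjusted p = 0.0196), with 0.373% of all genes called higher. The study had picked ITPK1 and IPPK for higher translation from these same libraries, so these p-values are no independent evidence. Over all alternatives run, the adjusted p in TE ranged from 7.49e-06 to 0.468 for ITPK1 and from 0.00221 to 0.709 for IPPK, and the log2 change stayed between 1.71 and 2.27 for ITPK1 and between 0.72 and 2.11 for IPPK. Without the filter of 10 reads, the 36 genes with any read were fitted, the study's picks among them. EdgeR called none of the 36 in TE or in Ribo-seq. At an unadjusted p under 0.05, 7 were higher and 0 lower in TE, beside 4.15% and 5.32% of 11670 genes, and 4 were higher and 0 lower in Ribo-seq, beside 1.66% and 1.72% of 12723 genes. Of these 36, 8 had reads with doxycycline only and 8 with DMSO only, so the direction of those was set by which treatment had any read. The remaining 20 genes had no read to test.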

How the data were processed

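RNA-seq and Ribo-seq counts of 12 libraries (3 for each assay and treatment) were used, grouped by the sample labels. The deposited counts are raw reads per gene made by the authors, who filtered the reads on quality, trimmed the linker and removed rRNA reads from Ribo-seq, mapped with STAR to GRCh38 and counted uniquely aligned exonic reads. The labels name GRCh37 and Ensembl release 75, and the strand setting is not given in the sources used here. From the authors' deposited table of TE only gene symbols were used; its dispersions, p-values, q-values and TE ratios are the authors' own comparison. Rows for spike-ins (92), viral genes (88) and reads without a gene (69.1% to 94.1% of RNA-seq and 97.1% to 99.1% of Ribo-seq counts) were left out.

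Counts were tested with edgeR 4.0.16 (limma 3.58.1, R 4.3.3) with TMM factors within each assay, on genes that reached 10 reads in 3 or more libraries (RNA-seq) or 10 reads summed over each assay (Ribo-seq, TE), at a Benjamini-Hochberg adjusted p under 0.05. CPM per kb used the union of exons, and GC the reference transcript, of GENCODE release 44. The tests were tried on simulated counts. The members and lists were chosen with earlier results of these data known. The genes named are ITPK1, IPPK, PLCG1 and IMPA1, those called in RNA-seq with or without doxycycline replicate 3, those with at least 10 Ribo-seq reads, the 5 highest and 3 lowest per kb, and the gene families. Alternatives were DESeq2 1.42.0 (size factors, Wald test), library totals, other filters, a replicate block, each replicate left out and, added after seeing the data, removal of the GC trend and 3 alternatives without doxycycline replicate 3. Python 3.11.15, numpy 2.4.6, scipy 1.17.1, pandas 2.3.3 and matplotlib 3.10.9 were used.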

Additional observations from a re-analysis of the deposited data

How the results depend on the processing

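Calls among the 56 genes in RNA-seq (0 higher and 0 lower over 6 libraries) depended on doxycycline replicate 3: leaving out 1 library at a time gave 0 to 2 higher and 0 to 3 lower, and each call came from leaving out this library. Without it, DESeq2's Wald test called 4 higher and 3 lower (4.87% and 5.15% of all genes), library totals 9 higher (7.05%), and removal of the GC trend 0. Of the 41 further pathway genes, leaving out 1 library gave 0 higher and 0 to 3 lower (3.4% and 4.03% of all genes without doxycycline replicate 3). Without that replicate, 2 were higher with the GC trend removed (1.99% of all genes). DESeq2 then called 3 higher and 4 lower (4.87% and 5.15%), and library totals 4 higher (7.05%). In TE, DESeq2 called 2 of the 56 genes higher, and in Ribo-seq 1, all of them picked by the study from these libraries. The cause of the difference between the tools was not tested.

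Of 288 log2 fold changes of the 18 named genes under 16 alternatives each, 253 kept their direction and side of the threshold, 16 newly passed it and 19 turned. Library totals turned IPPK (0.052; 0.010 without doxycycline replicate 3) and PIP5K1A (0.024 and 0.024), and without that replicate PLCB4 (0.026) and INPP4B (0.079). Removal of the GC trend, over 6 libraries and then without that replicate, turned IMPA1 (0.12 and 0.083), CDIPT (-0.15 and -0.10), ISYNA1 (-0.16 and -0.040), PLCB4 (0.16 and 0.099) and INPP4B (0.14 and 0.22), and over 6 libraries INPPL1 (-0.030). INPP4B ranged from -0.49 to 0.013 with 1 library left out, the latter without doxycycline replicate 3, where DESeq2 gave 0.020. Library totals moved the median log2 change of all genes from -0.36 to -0.63 in TE and from -0.24 to -0.36 in Ribo-seq.

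The replicate block gave 0 higher and 0 lower among the 56 genes in RNA-seq, TE and Ribo-seq. Deviations of same-numbered RNA-seq libraries from their group means correlated at 0.392, -0.361 and 0.0233, and not every library correlated best with its own number. No pairing by number was seen, but with 3 libraries per group this cannot exclude matched cultures. Same-numbered RNA-seq and Ribo-seq libraries were not compared. The 5 highest genes per kb were the same with the longest transcript as length, while PLCB4 left the 3 lowest. Depth limited Ribo-seq: the 10-read filter left out 50 of the 56 genes, and 20 had no read at all.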
